A study of Rattus norvegicus with 24 samples.

Results

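The genes described here build and break down triglyceride, and 9 of them were followed in rat left ventricle after coronary ligation or sham surgery and on saturated fat chow or normal chow. They were chosen by name: Gpam, Lpin1, Dgat1 and Dgat2 for synthesis, Pnpla2, Abhd5, Lipe and Mgll for lipolysis, and Plin2 for the coat of the lipid droplet. The 9 genes had 11 probes among the 22517 on the array, and 8 of the 9 could be tested among 10344 genes. Of the 9, 6 went by a symbol in the deposited table; Plin2 stood there under its older name ADRP, and Pnpla2 and Abhd5 under LOC names that were matched by gene ID and by accession.

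RNA from the left ventricle of 24 male Wistar rats was hybridised to Illumina bead arrays, 1 array per animal. The ligated fat and ligated chow groups had a ligated coronary artery, which was used to impair cardiac function; the sham fat and sham chow groups had the operation without it. From surgery onward the fat groups ate chow with 60% of calories from fat, of which palmitic acid was 25%, stearic acid 33% and oleic acid 33%, and the chow groups ate normal rodent chow. Each group held 6 rats of 300 to 350 g, with no genetic change named, and the sources used here do not state the length of feeding. Tissue was bulk ventricle, so that fewer cells of a type and less RNA per cell cannot be told apart. Between 8884 and 10475 probes were detected per array, and all 12 cardiomyocyte markers looked up were detected on 24 of 24 arrays. The arrays fell into 2 sets by background: 12 had a high background (signal 144 to 161) and 12 a low one (81.6 to 93), and the high-background set held 5 ligated fat, 2 ligated chow, 3 sham fat and 2 sham chow animals.

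Triglyceride is made by adding fatty acids to glycerol 3-phosphate: Gpam, a mitochondrial acyltransferase, starts the pathway, Lpin1 removes the phosphate to give diacylglycerol, and the diacylglycerol acyltransferases Dgat1 and Dgat2 add the last fatty acid. The store is emptied in the reverse sense by Pnpla2 (adipose triglyceride lipase), which needs Abhd5 as co-activator, then by hormone-sensitive lipase, Lipe, and then by monoacylglycerol lipase, Mgll. In the heart this droplet pool is known to supply fatty acids for oxidation and ligands for PPAR alpha, and Plin2 coats the droplets.

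All levels below are normalized log2 signals of single probes, and they say nothing about which gene is expressed more than another. Single probes of Dgat1, Pnpla2, Lipe, Mgll and Plin2, the brighter probe of Dgat2 and the first probe of Lpin1 were detected on 24 of 24 arrays. The Gpam probe was dim and detected on 16 arrays, 5 ligated fat, 3 ligated chow, 5 sham fat and 3 sham chow. A second Lpin1 probe was detected on 23 arrays. Abhd5 was detected on 1 array, in the ligated fat group, and the second Dgat2 probe on 0, so neither was well above background in any group and neither was tested among the kept genes. Abhd5 levels lay between 5.33 and 5.89 over all animals, and no fold is given for it.

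Promoter sequence was looked up in RefSeq (build GRCr8, 250 bases before the start to 50 after it) and found for 6 of the 9 genes. Windows of 4 genes are shown, for the tested genes of these 6 that belonged to a correlated pair in the results that follow. They lie at chr6:45108893-45109192 (minus strand, Lpin1), chr1:205982029-205982328 (plus strand, Pnpla2), chr4:122749186-122749485 (plus strand, Mgll) and chr5:106228969-106229268 (minus strand, Plin2). Capitals mark the E-box CACGTG, the binding motif of the clock factors.
Lpin1: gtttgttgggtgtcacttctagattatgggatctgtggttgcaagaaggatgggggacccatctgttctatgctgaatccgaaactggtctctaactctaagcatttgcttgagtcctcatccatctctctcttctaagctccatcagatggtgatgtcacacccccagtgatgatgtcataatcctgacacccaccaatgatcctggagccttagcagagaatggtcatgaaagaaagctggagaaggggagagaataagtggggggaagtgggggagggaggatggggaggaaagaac
Pnpla2: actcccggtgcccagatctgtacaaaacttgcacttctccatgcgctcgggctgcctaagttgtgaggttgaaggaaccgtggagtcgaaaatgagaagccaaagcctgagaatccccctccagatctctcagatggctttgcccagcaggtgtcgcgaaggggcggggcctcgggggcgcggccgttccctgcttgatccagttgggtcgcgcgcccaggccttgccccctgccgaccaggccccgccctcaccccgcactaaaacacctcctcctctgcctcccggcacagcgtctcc
Mgll: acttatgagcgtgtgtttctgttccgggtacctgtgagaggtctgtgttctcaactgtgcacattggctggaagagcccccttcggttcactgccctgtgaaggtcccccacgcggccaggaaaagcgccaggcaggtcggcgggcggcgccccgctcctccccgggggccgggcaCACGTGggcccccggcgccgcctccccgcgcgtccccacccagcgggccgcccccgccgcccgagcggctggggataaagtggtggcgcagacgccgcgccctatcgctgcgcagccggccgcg
Plin2: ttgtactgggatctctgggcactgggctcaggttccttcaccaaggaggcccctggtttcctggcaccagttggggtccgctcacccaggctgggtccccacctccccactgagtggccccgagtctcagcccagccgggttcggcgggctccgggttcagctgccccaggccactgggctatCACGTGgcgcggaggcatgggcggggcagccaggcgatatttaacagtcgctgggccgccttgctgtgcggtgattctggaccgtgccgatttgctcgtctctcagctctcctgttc

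An E-box lay at position -74 from the start of Mgll and at -67 from the start of Plin2 shown here, and 6.42% of all 33469 rat promoter windows held one. A second Plin2 window, from another start, held none, nor did the windows of Lpin1, Pnpla2, Gpam and Abhd5. In all, 14 motifs were searched on both strands over the windows of the 6 genes. The GC box GGGCGG was in 4 genes (Pnpla2, Mgll, Plin2, Abhd5; 33.1% of all windows) and CCAAT in 4 (Gpam, Lpin1, Mgll, Plin2; 37.5%). For Plin2, CCAAT lay only in the window that is not shown. The glucocorticoid half-site TGTTCT was in Lpin1 and Mgll (20.7%), and the nuclear receptor half-site AGGTCA in Abhd5 (16.2%). No window of these genes held the D-box TTANGTAA (2.24%), the cyclic AMP element TGACGTCA (1.83%) or its part TGACG (21.2%), TATAAA (14.2%) or the forkhead motif GTAAACA (3.78%). The MEF2 motif (0.137%), the NRF1 motif (0.852%) and direct repeats of AGGTCA with 1 base between (0.0538%) or 4 (0.00598%), which overlap the half-site, were also in none of them.

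Of the 8 genes tested, Dgat1 alone was called in any comparison, lower after ligation. The question of the first comparison was how the ligated ventricle differs on an ordinary diet. Dgat1 lay at 10.60, 10.86 and 11.04 (lowest, median and highest log2 level) in ligated chow rats, against 11.20, 11.34 and 11.54 in sham chow rats. The groups did not overlap: 6 of 6 ligated animals were below every sham animal, a pattern that 0.348% of all genes showed in that direction. The difference was -0.53 on the log2 scale (SE 0.11, 95% interval -0.76 to -0.30), or 0.691 times the sham level, with a limma adjusted p of 0.0262. Of the 8 genes 1 was thus called lower in this comparison, where 0.116% of all genes were (0.474% in either direction). Within the 2 background sets the difference was -0.51 (2 against 2 animals) and -0.54 (4 against 4).

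On fat chow Dgat1 lay at 10.63, 10.98 and 11.42 in ligated rats, against 11.09, 11.26 and 11.52 in sham rats. Here 5 of 6 ligated fat animals were below every sham fat animal, and animal 18 lay among the sham animals. The difference of -0.32 (SE 0.11, 95% interval -0.55 to -0.09) did not pass the test (adjusted p = 0.215), although it did without animal 18 (-0.41, adjusted p = 0.0374). Its size on the 2 diets was not shown to differ: the interaction was 0.21 (SE 0.16, 95% interval -0.12 to 0.54, adjusted p = 0.902). Averaged over both diets, Dgat1 differed by -0.43 (SE 0.08, adjusted p = 0.00243), with 11 of 12 ligated animals below every sham animal. That average is made of the same animals as the comparisons on each diet. In it, 1 of 8 genes was called lower, where 1.09% of all genes were (3.15% in either direction).

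The call on chow was lost when any of 6 animals was left out (sham chow 9, 7 or 13, ligated chow 24, 23 or 4; adjusted p 0.0616 to 0.0809), while the difference stayed between -0.58 and -0.49. Over both diets, Dgat1 stayed called whichever of the 24 animals was dropped (adjusted p 0.000259 to 0.00598). Diet did not move Dgat1 detectably: fat minus chow was -0.07 in sham rats (95% interval -0.30 to 0.16) and 0.14 in ligated rats (-0.09 to 0.37).

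**Figure D1:**
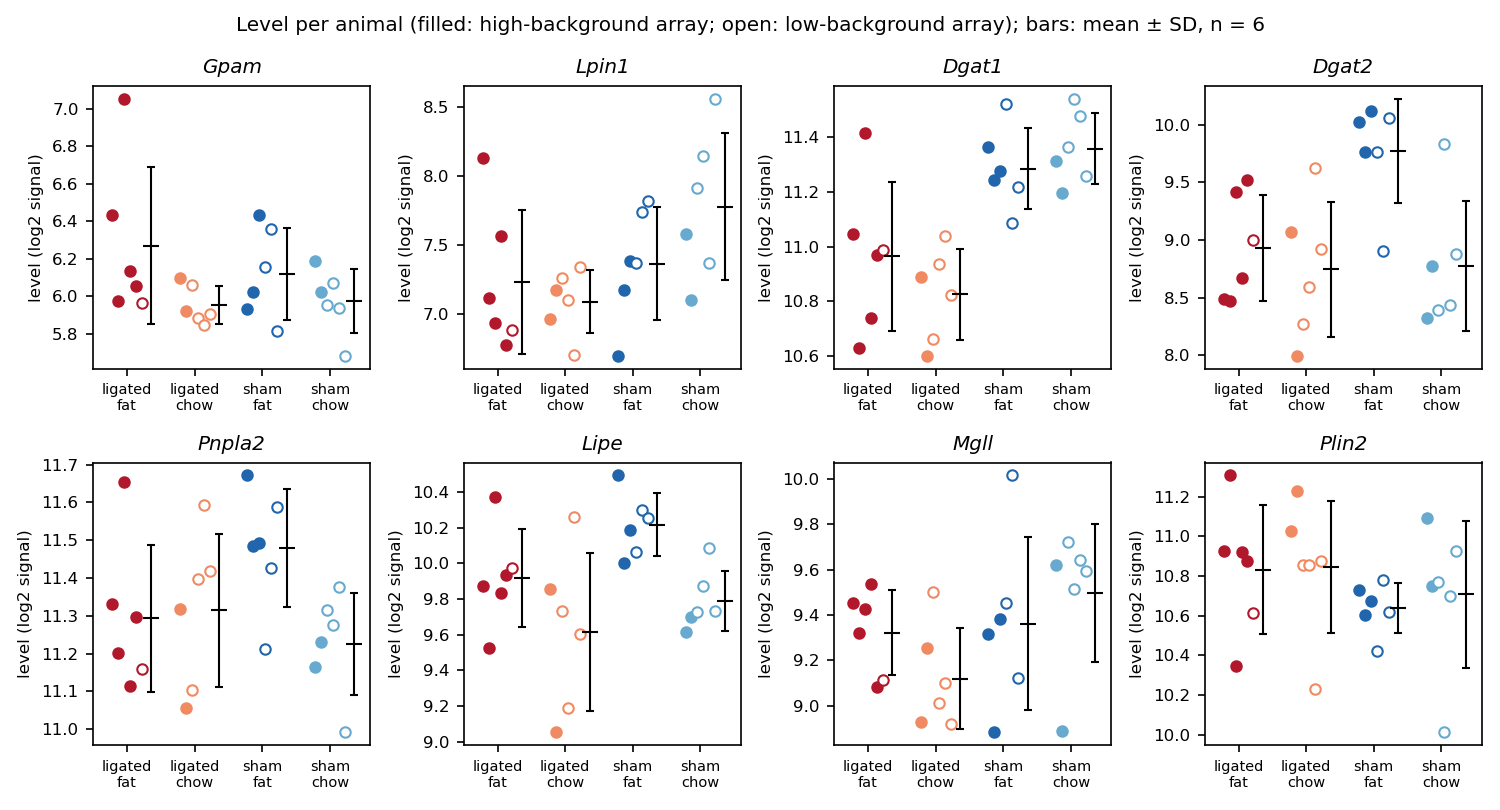
Log2 level (vertical axes) of the 8 tested genes in each of the 24 animals, with the groups ligated fat, ligated chow, sham fat and sham chow from left to right; bars are the mean ± SD of 6 animals, filled points are high-background arrays and open points low-background arrays. In Dgat1 every ligated chow animal, at 11.04 or less, lies under every sham chow animal, at 11.20 or more.

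Dgat2 showed the widest spread and the largest differences of the 8 genes, and none of them passed the test. It lay at 8.90, 9.90 and 10.12 in sham fat rats, against 8.32, 8.60 and 9.83 in sham chow rats. Those groups overlapped through sham fat animal 12, the lowest of its group, and sham chow animal 7, the highest of its own. The mean difference of fat over chow in sham rats was 1.0 (SE 0.28, 95% interval 0.43 to 1.57), a ratio of 2, with an unadjusted p of 0.00131 and an adjusted p of 0.425. This p ranked 32 among 10344 genes in a comparison with few calls.

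In ligated rats the diets hardly separated: Dgat2 lay at 8.47, 8.84 and 9.52 in ligated fat rats, against 7.99, 8.76 and 9.63 in ligated chow rats. Fat minus chow was 0.18 there (95% interval -0.39 to 0.75, adjusted p = 0.819). Ligated fat minus sham fat was -0.85 (SE 0.28, adjusted p = 0.175), with 6 of 6 ligated animals below the sham mean and 3 below every sham animal. On chow the same difference was -0.03 (95% interval -0.60 to 0.54), and the interaction was -0.82 (95% interval -1.62 to -0.01, adjusted p = 0.881). The second Dgat2 probe, at background, shows nothing of the gene.

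The other synthesis genes did not pass the test either. Lpin1 lay at 6.70, 7.14 and 7.34 in ligated chow rats, against 7.10, 7.75 and 8.56 in sham chow rats. The groups overlapped, with 3 of 6 ligated animals below every sham animal and 6 of 6 below the sham mean. The difference was -0.69 (SE 0.24, 95% interval -1.17 to -0.20, adjusted p = 0.232), and it was -0.27 on high-background and -0.90 on low-background arrays. The second Lpin1 probe gave -0.35 (adjusted p = 0.399). On fat chow the 2 probes differed in sign, at -0.13 and 0.08, and both intervals held 0.

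Gpam was near the detection limit, at 5.97, 6.09 and 7.05 in ligated fat rats, against 5.84, 5.91 and 6.10 in ligated chow rats. Ligated fat animal 18 held the highest value and the groups overlapped. The difference of fat over chow in ligated rats was 0.32 (95% interval 0.01 to 0.62, adjusted p = 0.52) and 0.16 without that animal, and the other 3 differences between pairs of groups lay between -0.02 and 0.15.

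No lipolysis gene was called in any comparison. Lipe and Pnpla2 differed most with diet in sham rats. Lipe lay at 10.001, 10.22 and 10.49 in sham fat rats, against 9.62, 9.73 and 10.08 in sham chow rats. In all, 4 of 6 sham fat animals were above every sham chow animal. The difference was 0.43 (SE 0.16, 95% interval 0.10 to 0.76, limma adjusted p = 0.649). Over both surgeries it was 0.37 (SE 0.11, limma unadjusted p = 0.00335, adjusted p = 0.412), with 11 of 12 fat animals above the chow mean. After ligation Lipe differed by -0.30 on fat chow (limma adjusted p = 0.473), with 5 of 6 ligated animals below every sham animal. On chow it differed by -0.17 (limma adjusted p = 0.772) and over both diets by -0.24 (limma adjusted p = 0.315).

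Pnpla2, which takes the first fatty acid off triglyceride, had narrow groups. It lay at 11.21, 11.49 and 11.67 in sham fat rats, against 10.99, 11.25 and 11.38 in sham chow rats, and 5 of 6 fat animals were above every chow animal. That difference was 0.25 (SE 0.11, 95% interval 0.03 to 0.47, adjusted p = 0.774). After ligation on chow it differed by 0.09 (95% interval -0.13 to 0.31). On fat chow that difference was -0.19 (95% interval -0.41 to 0.03, limma adjusted p = 0.512), with 3 of 6 ligated animals below every sham animal.

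Mgll lay at 8.92, 9.06 and 9.50 in ligated chow rats, against 8.89, 9.61 and 9.72 in sham chow rats, where animal 40 was far below the rest. The groups overlapped through that animal, and the difference was -0.38 (SE 0.16, 95% interval -0.70 to -0.05, adjusted p = 0.378). On fat chow it was -0.04 (95% interval -0.37 to 0.29). Mgll is the last enzyme of the chain, releasing glycerol.

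Plin2 varied widely between animals, but its group means lay close together. It was at 10.35, 10.90 and 11.31 in ligated fat rats, 10.23, 10.87 and 11.23 in ligated chow rats, 10.42, 10.65 and 10.78 in sham fat rats and 10.01, 10.76 and 11.09 in sham chow rats. All 4 groups overlapped. The 4 differences between pairs of groups ran from -0.07 to 0.19, and the intervals of the fat over chow differences were -0.41 to 0.28 in sham rats and -0.36 to 0.33 in ligated rats.

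**Figure D2:**
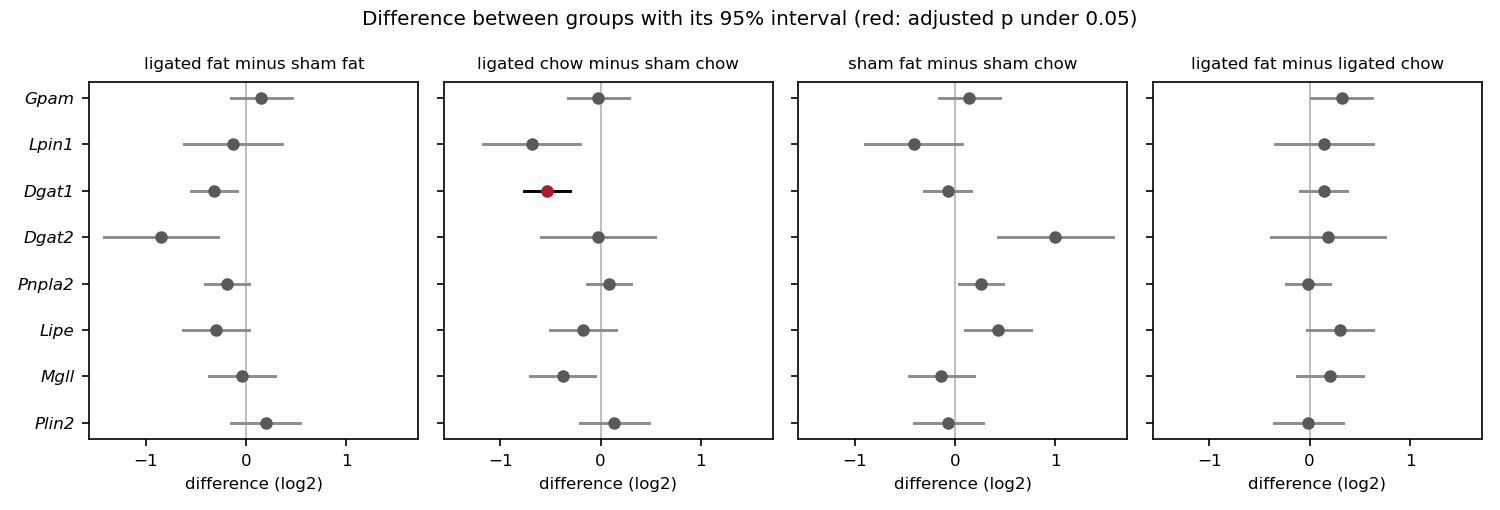
Log2 difference between groups (horizontal axes) for the 8 tested genes, with 95% intervals, in 4 comparisons. Dgat1 in ligated chow minus sham chow, at -0.53, is the only point called at an adjusted p under 0.05; Dgat2 in sham fat minus sham chow, at 1.0, lies farthest from 0.

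Counted together, the 8 genes gave 0 calls on fat chow after ligation (0.889% of all genes), 0 for fat in sham rats (0.0193%), 0 for fat in ligated rats (0.00967%), 0 for the interaction (0%) and 0 for fat over both surgeries (0.058%), all by limma. At an unadjusted p under 0.05 the counts were 2, 3, 1, 1 and 3 in that order, where the shares of all genes were 11.7%, 5.98%, 9.55%, 5.41% and 9.16%. On chow after ligation 3 of 8 passed that looser mark (10.4% of all genes) and over both diets 4 of 8 (15.5%). Of the 8 genes, 2 were higher and 6 lower after ligation on chow (median -0.10, against -0.0015 for all genes). Over both diets the split was again 2 to 6, with a median of -0.22 against -0.01 for all genes. For fat over chow 4 were higher and 4 lower in sham rats (median 0.04, against 0.0018), and 6 were higher and 2 lower in ligated rats (median 0.16, against -0.01). The comparisons share groups, so these counts are not independent of each other.

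Levels of the 8 genes were also set against each other across the 24 animals. Of 28 pairs, 9 were correlated at an adjusted permutation p under 0.05, 6 positively and 3 negatively. The weakest of the 9 had r = 0.50, and 32.1% of the 28 pairs were at least that far from 0, where 8.22% of all pairs of the 10344 genes were. Pairs share genes and arrays, so this share is a description with no test. Dgat2 went with Lipe (Pearson r = 0.71, Spearman rho = 0.68, adjusted permutation p = 0.00168 and 0.00504) and with Pnpla2 (r = 0.63, rho = 0.60, adjusted permutation p = 0.00728 and 0.00948), and Pnpla2 with Lipe (r = 0.66, rho = 0.66, adjusted permutation p = 0.00299 and 0.00504).

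Dgat1 was correlated with Lipe (r = 0.55, rho = 0.51, adjusted permutation p = 0.0198 and 0.042) and with Dgat2 (r = 0.50, adjusted permutation p = 0.0429), the last of which did not pass by rank (rho = 0.40, adjusted permutation p = 0.146). Plin2 ran the other way, against Dgat2 (r = -0.66, rho = -0.65, adjusted permutation p = 0.00299 and 0.00504), Dgat1 (r = -0.65, rho = -0.62, adjusted permutation p = 0.00329 and 0.00733) and Lipe (r = -0.59, rho = -0.67, adjusted permutation p = 0.0112 and 0.00504). Lpin1 and Mgll formed a pair of their own (r = 0.56, rho = 0.64, adjusted permutation p = 0.0194 and 0.00521).

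These relations were checked within the groups and the background sets. With group means removed and animals permuted within groups, 8 pairs passed, 7 of them among the 9. The 2 that did not were Dgat2 with Pnpla2 (r = 0.49, adjusted permutation p = 0.0736) and Lpin1 with Mgll (r = 0.44, adjusted permutation p = 0.108). All 9 kept their sign on high-background arrays, where 7 passed, and on low-background arrays, where 0 passed. On those 2 sets Dgat2 and Lipe gave r = 0.85 and 0.51, Pnpla2 and Lipe 0.91 and 0.35, and Dgat2 and Plin2 -0.72 and -0.73; over the 6 positive pairs r ran from 0.50 to 0.91 on the first set and from 0.33 to 0.53 on the second. Without the 2 animals farthest from the median of the first gene of each pair, 6 of the 9 passed; r was then 0.67 for Dgat2 with Lipe, 0.56 for Dgat2 with Pnpla2, 0.54 for Pnpla2 with Lipe, 0.54 for Lpin1 with Mgll, 0.38 for Dgat1 with Dgat2 and 0.38 for Dgat1 with Lipe. For Plin2 it was -0.70 with Dgat2, -0.51 with Dgat1 and -0.55 with Lipe. Scaling mattered most for Plin2: with arrays scaled to the median of all probes, Dgat1 with Plin2 moved to 0.29 and Lipe with Plin2 to 0.25, Dgat2 with Plin2 to -0.03, and 15 pairs passed, of which 6 were among the 9. Scaled to the median of the probes detected on every array, all 9 passed with the same sign and Plin2 was at -0.62 with Dgat1, -0.56 with Lipe and -0.62 with Dgat2.

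**Figure D3:**
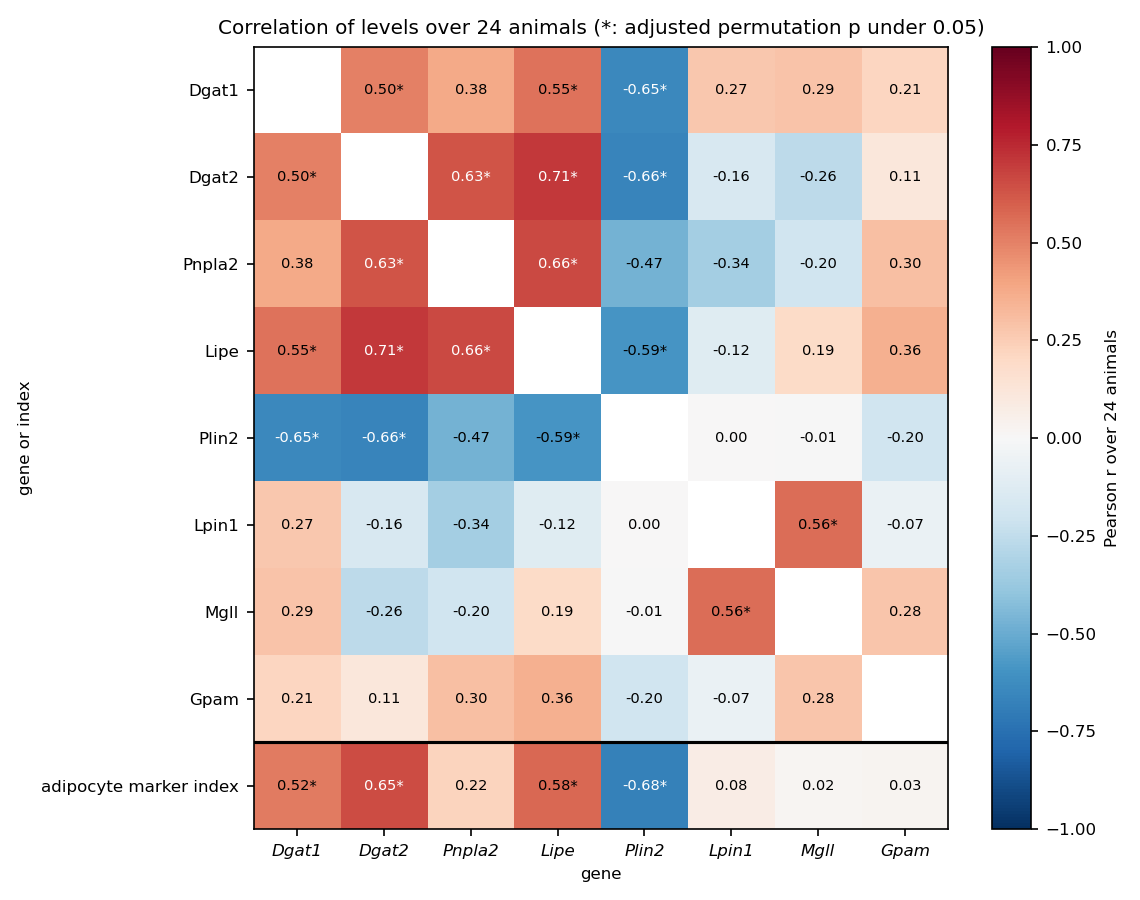
Pearson correlation over 24 animals between the log2 levels of the 8 tested genes (rows and columns) and, under the line, with the adipocyte marker index; colour gives r from -1 to 1, and an asterisk an adjusted permutation p under 0.05. Dgat1, Dgat2, Pnpla2 and Lipe form a block of positive values up to 0.71, Plin2 is negative with all 4 under this quantile normalization (positive with Dgat1, Pnpla2 and Lipe under scaling to the median of all probes), and Lpin1 with Mgll stands apart at 0.56.

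The genes most like each member were ranked by Pearson r over the 24 arrays among 8929 other genes with an official symbol, as a description. Among the genes closest to Dgat1 was Hdac2 (0.84), a histone deacetylase, which fell after ligation over both diets (-0.36, adjusted p = 0.0213). Dgat2 was closest to Zbtb16 (0.87), a zinc finger transcription factor, and Herpud1 (0.85), a protein of the endoplasmic reticulum stress response. Zbtb16 differed by 1.71 for fat over chow in sham rats (adjusted p = 0.391), again without passing the test. Lipe was closest to Crat (0.85), the carnitine acetyltransferase, and Impa2 (0.81), an inositol monophosphatase that fell after ligation over both diets (-0.44, adjusted p = 0.00264). Plin2 was closest to Prr13 (0.88) and Fcgr2al1 (0.81), Lpin1 to Tmem106b (0.86) and Rev3l (0.85), Mgll to Elavl1 (0.84) and Cpsf2 (0.77), Pnpla2 to Dpm3 (0.79) and Pi4kb (0.79), and Gpam to Btbd2 (0.80) and Nup188 (0.79).

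Genes of the circadian clock varied between animals of the same group. A clock index was taken as the mean centred log2 level of Dbp, Tef, Per1, Per2, Per3 and Nr1d1, outputs of the circadian clock, minus that of Bmal1, one of its activators. Per the series' design text, the rats lived on a reversed light cycle and were handled from hour 3 to hour 6 of darkness. The index fell into 2 sets of 12 animals with a gap between them, 0.61 to 1.36 in the upper set and -1.76 to -0.21 in the lower. The upper set held 1 ligated fat, 4 ligated chow, 5 sham fat and 2 sham chow animals, so the index was unequal between the groups. Because of the gap no correlation over all 24 animals is given. Median levels in the upper and lower set were 9.69 and 8.48 for Dgat2, 11.45 and 11.18 for Pnpla2, and 10.03 and 9.78 for Lipe. They were 11.23 and 11.02 for Dgat1, 9.11 and 9.52 for Mgll, and 10.65 and 10.90 for Plin2. For Lpin1 they were 7.14 and 7.46, and for Gpam 6.02 in both. These differences between the sets were not tested, and the sets differ in their groups. Within the sets, 1 of 16 relations passed: Lpin1 fell with the index in the lower set (r = -0.80, rho = -0.86, adjusted permutation p = 0.031 and 0.0117, n = 12; r = -0.72 without the 2 animals farthest from the median, and -0.94 and -0.78 on its 6 high-background and 6 low-background arrays). The lower set held 5 ligated fat, 2 ligated chow, 1 sham fat and 4 sham chow animals. Animals of either set were permuted across groups, so index and group cannot be told apart in these relations. In the upper set Lpin1 gave r = -0.03, and Plin2 gave r = -0.71 (adjusted permutation p = 0.0832), which was -0.31 without 2 animals.

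Dgat2 differences moved when either index was added to the fit, and none was called. With the clock index, fat minus chow in sham rats became 0.56 (adjusted p = 0.999), against 1.0 without the index, and in ligated rats 0.53 (adjusted p = 0.532), against 0.18. Ligated minus sham on fat became -0.40 and the interaction -0.03. With the adipocyte marker index described next, ligated minus sham became 0.41 on chow (adjusted p = 0.649), against -0.03, and -0.11 over both diets (adjusted p = 0.909), against -0.44, and fat minus chow in ligated rats became -0.12 (adjusted p = 0.851). On high-background arrays alone fat minus chow over both surgeries was 0.90, against 0.59 on all arrays. Dgat1 on chow kept its call with the clock index (-0.62, adjusted p = 0.00439), and so did Dgat1 over both diets (-0.41, adjusted p = 0.00123).

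**Figure D4:**
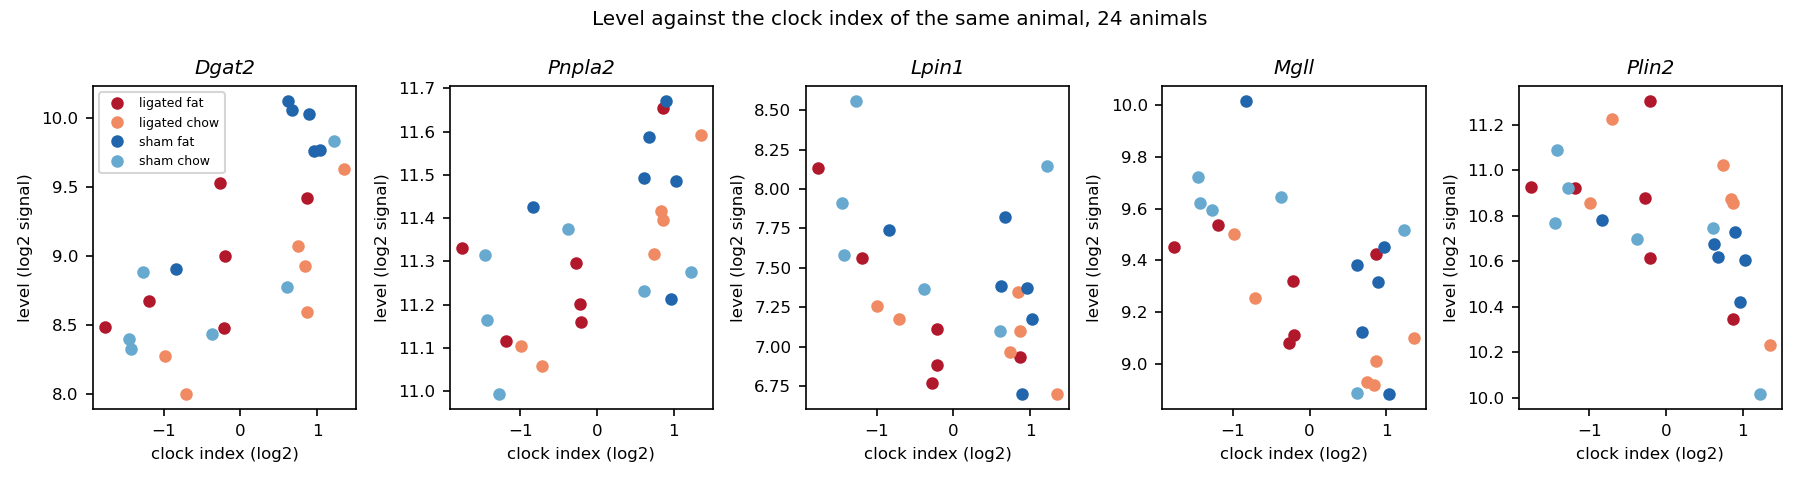
Log2 level (vertical axes) of Dgat2, Pnpla2, Lpin1, Mgll and Plin2 against the clock index of the same animal (horizontal axes), 24 animals coloured by group. The animals form 2 sets on the index, at -0.21 and under and at 0.61 and over; 5 of 6 sham fat animals are in the upper set and 5 of 6 ligated fat animals in the lower.

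Adipocytes also express these genes, and their markers were followed beside them. Of 11 markers 6 could be tested; Lep, Plin1, Acvr1c and Trarg1 were detected on 0 arrays and Adipoq on 3, while Cfd, Cidea, Fabp4 and Pparg were detected on 24, Retn on 14 and Cidec on 10. The summed signal of the 6 ranged from 21800 to 25600 in ligated fat, 16500 to 24400 in ligated chow, 24800 to 28000 in sham fat and 20900 to 28400 in sham chow rats. Fabp4 had the brightest probe of the 6 in every group, so it weighs most in the sum. Its median log2 level was 14.17 in ligated fat, 13.95 in ligated chow, 14.26 in sham fat and 13.94 in sham chow rats. Signals of different probes do not rank the genes by expression. Whether the 6 together follow the number of adipocytes was not tested. Pparg fell after ligation over both diets (-0.39, limma adjusted p = 0.0464) and was the only one of the 6 called in that comparison, where 1.09% of all genes were called lower. Of the 6 markers, 5 were below 0 there and 1 above it (median -0.17, highest 0.16), and 46.2% of all genes were above 0. An index of the 6 was correlated with Dgat2 (r = 0.65, rho = 0.65, adjusted permutation p = 0.00184 and 0.00344), Lipe (r = 0.58, rho = 0.57, adjusted permutation p = 0.00891 and 0.0113), Dgat1 (r = 0.52, rho = 0.49, adjusted permutation p = 0.0166 and 0.0336) and Plin2 (r = -0.68, rho = -0.65, adjusted permutation p = 0.0016 and 0.00344), 4 of 8 genes. On high-background and low-background arrays r was 0.62 and 0.71 for Dgat2, 0.65 and 0.49 for Lipe, 0.45 and 0.57 for Dgat1 and -0.60 and -0.74 for Plin2. Without the 2 animals of most extreme index it was 0.56 for Dgat2, 0.58 for Lipe, 0.32 for Dgat1 and -0.46 for Plin2, and with group means removed Dgat1 gave 0.28. Scaled to the median of all probes, Plin2 turned positive (0.36), while Dgat1, Dgat2 and Lipe stayed between 0.70 and 0.73. With this index in the fit Dgat1 was at -0.47 on chow (adjusted p = 0.176), no longer called, and at -0.38 over both diets (adjusted p = 0.0356).

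Some markers of other cells also moved with ligation. Over both diets 3 of 8 macrophage markers rose (C1qa 0.66, C1qb 0.58, C1qc 0.55), as did 1 of 10 fibroblast markers (Cd248, 0.68) and 1 of 5 endothelial ones (Vwf, 0.32), where 2.06% of all genes rose. All 8 macrophage, 10 fibroblast and 5 endothelial markers tested were above 0, where 46.2% of all genes were. Their medians were 0.46, 0.36 and 0.02, so the endothelial list hardly moved, and on fat chow 3 of its 5 markers were above 0. Of smooth muscle markers 1 of 3 was above 0 over both diets and of erythroid ones 3 of 5, with 0 called in either list. The summed macrophage signal ranged from 4360 to 6910 in ligated fat, 3500 to 6870 in ligated chow, 2860 to 4170 in sham fat and 3110 to 4560 in sham chow rats. The fibroblast sum ranged from 58600 to 100000 in ligated fat, 60100 to 82900 in ligated chow, 54300 to 66300 in sham fat and 51700 to 85500 in sham chow rats. Of 12 cardiomyocyte markers 0 were called by limma (1 at an unadjusted p under 0.05, where 15.5% of all genes were), with a median of -0.03. Their part in the Dgat1 difference was not tested.

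The rest of the pathway was taken from lists of other genes. The 12 further genes of triglyceride synthesis gave 0 calls in any comparison by limma. After ligation over both diets 4 were higher and 8 lower (median -0.07). Of the 12, 2 had an unadjusted p under 0.05, where 15.5% of all genes did. The nearest was Acsl1, which activates long-chain fatty acids in the heart, at -0.38 (adjusted p = 0.091), and then Agpat2, an acyltransferase of the next step after Gpam, at -0.27 (adjusted p = 0.109). Of 11 further genes of the droplet coat and droplet assembly 1 was called, Fitm1, which promotes droplet formation in muscle. It fell after ligation on fat chow (-0.54, limma adjusted p = 0.0336), where 0.889% of all genes were called in either direction. Over both diets it fell as well (-0.42, limma adjusted p = 0.00632), where 1.09% were called lower. Plin5, the coat protein of oxidative tissue, was at -0.44 over both diets (adjusted p = 0.077). The 12 lipolysis regulators and other hydrolases gave 0 calls by limma. At an unadjusted p under 0.05 there were 3 after ligation over both diets (15.5% of all genes) and 4 for fat over both surgeries (9.16%). Abhd6, another monoacylglycerol hydrolase, was at 0.52 for fat over chow in sham rats (adjusted p = 0.501) and at -0.51 for ligation on fat chow (adjusted p = 0.153). Scd, Srebf1 and Insig1, of the insulin and carbohydrate control of lipid synthesis, gave 0 calls and 0 unadjusted p under 0.05 in either pooled comparison.

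The diet response of the same hearts was seen in genes that respond to PPAR ligands. Of 17 such genes 17 were above 0 for fat over both surgeries (median 0.25, against -0.005 for all genes) and 4 rose by the test, where 0.058% of all genes did. Among these were Angptl4, an inhibitor of lipoprotein lipase, by 2.06 (adjusted p = 9.49e-05), Acot1, a thioesterase, by 1.502 (adjusted p = 0.00055), and Pdk4, which blocks pyruvate oxidation, by 0.96 (adjusted p = 0.00717). They are given as the scale of the diet response; the largest diet difference among the 8 triglyceride genes in that comparison was 0.59, in Dgat2 (adjusted p = 0.484). After ligation over both diets 5 of the 17 fell, where 1.09% of all genes did (Acot1 -0.87, Acot2 -0.54, Decr1 -0.47, Ech1 -0.37, Acadm -0.23) and Ucp2, an uncoupling protein, rose by 0.57 (adjusted p = 0.00178).

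**Figure D5:**
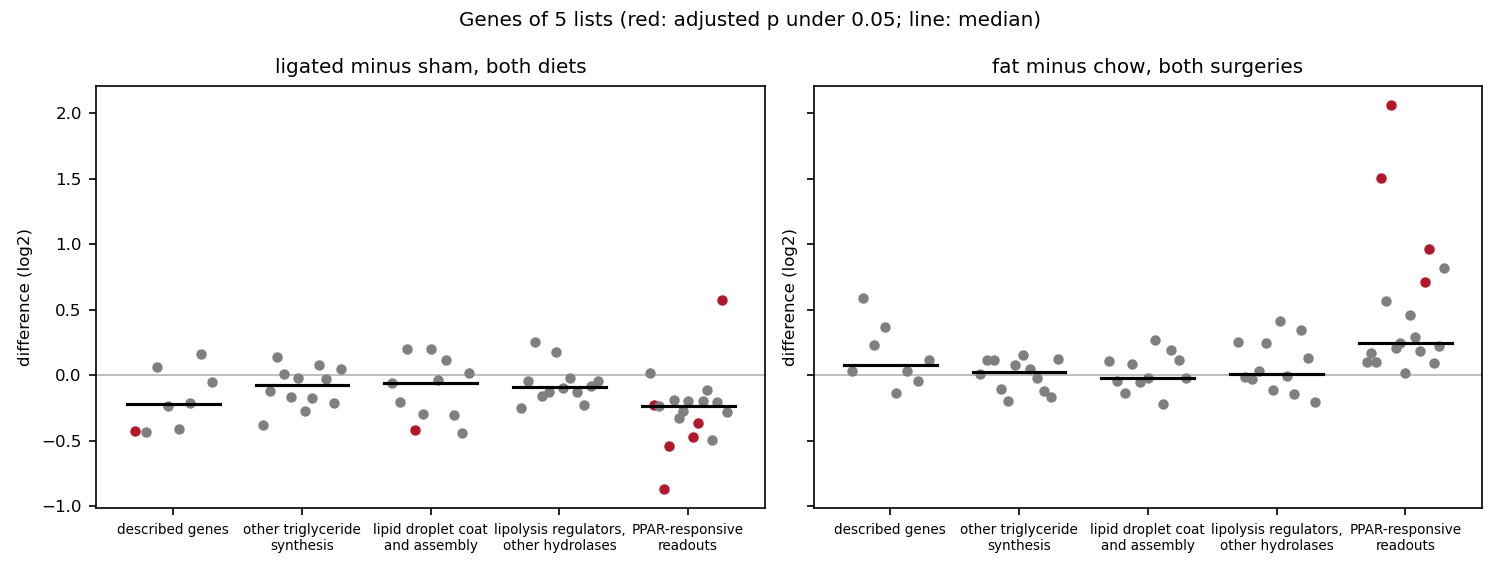
Log2 difference (vertical axes) of each tested gene in 5 lists, for ligated minus sham over both diets (left) and fat minus chow over both surgeries (right); red points have an adjusted p under 0.05 and lines are medians. Dgat1, at -0.43, is the only red point among the 8 described genes, and the PPAR-responsive list holds 6 red points on the left and 4 on the right.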

How the data were processed

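RNA of 24 left ventricles was read on Illumina bead arrays. The authors deposited a linear intensity for each probe; the submitters' processing notes name BeadStudio 3, and its settings are not given in the sources used here. Per the file headers, every intensity has a detection p-value, which moves in steps of 1 in 825. A second deposited table of normalized intensity served as an alternative; its method is not stated.

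The neqc function of limma 3.58.1 (R 4.3.3) corrected background with an offset of 16, quantile-normalized and took log2. A probe was kept if detected (p under 0.05) on 6 arrays or more, which left 10540 of 22517. Names came from accession (6330 probes), symbol (4391), synonym (1404) or the gene ID in a LOC name (5152) through the RefSeq table of GRCr8. The probe of highest mean stood for a gene (184 genes had several), leaving 10344 genes. limma fitted 4 group means (20 residual degrees of freedom); a call is a Benjamini-Hochberg adjusted p under 0.05 over all genes. Correlations used 100000 permutations, two-sided.

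The background sets were read from the signals, not from a label. The members, lists, markers and tests were chosen with earlier results of these data known. The genes named are all 9 members, list genes called or with the smallest p, detected adipocyte markers and the 2 genes most like each member; only part of those with the smallest p is printed, and some named by this rule are not reported here. The index correlations, the sets of the clock index, the scaling over probes detected on all arrays and the exclusion of 3 arrays were chosen after seeing the data. The code was tested on simulated data. The number of arrays limits the precision.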

Additional observations from a re-analysis of the deposited data

Results flagged for a closer look

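In each gene and group of 6 animals the highest or lowest value was set against the rest: the gap to its nearest neighbour as a share of the group's range. Of 32 such checks 4 exceeded Dixon's 95% critical share, where chance gives about 1 in 20. In sham fat rats, Dgat2 of animal 12 lay low at 8.90, with 9.76 the next value (share 0.703). In sham chow rats, Dgat2 of animal 7 lay high at 9.83, with 8.88 next (share 0.631), and Plin2 of the same animal lay low at 10.01, with 10.70 next (share 0.638). Mgll of sham chow animal 40 lay low at 8.89, with 9.52 next (share 0.754). Without animal 7 the Dgat2 difference of sham fat over sham chow was 1.21; the lowest adjusted p with any 1 animal left out was 0.12. Without animal 40 the Mgll difference of ligated over sham on chow was -0.50.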

How the results depend on the processing

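Dgat1 was lower after ligation on chow in all 20 alternatives (-0.62 to -0.47) and called in 16. The 4 that gave 0 called genes were median scaling over all probes (adjusted p = 0.55), high-background arrays only (1), low-background arrays only (0.169) and the adipocyte marker index as a covariate (0.176). Leaving out single animals gave 0 to 1 called genes. Over both diets median scaling, high-background arrays and low-background arrays gave 0 (adjusted p 0.138, 0.434 and 0.209), and leaving out the 3 arrays least correlated with the others gave 2, Lipe being the second (-0.36, adjusted p = 0.029). After ligation on fat, array weights gave 1 call (Dgat1 at -0.41, adjusted p = 0.0174), the exclusion of those 3 arrays 1 (adjusted p = 0.0275), and leaving out single animals 0 to 1. A background set holds fewer arrays than the whole, and the cause of any of these changes was not tested. Among correlated pairs, median scaling gave 15 and low-background arrays 0.

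A difference that was never called and changed sign was not counted as a reversal. Of 1082 values of the 8 genes under alternatives, 1028 had the reported sign and 54 the opposite one. No called value changed sign.

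Counts over all genes moved more. After ligation on chow, on fat and over both diets, against 49, 92 and 326, median scaling over all probes gave 0, 10 and 57, array weights 120, 306 and 663, high-background arrays 3, 9 and 12, low-background arrays 0, 4 and 30, the adipocyte index 14, 45 and 101, and the exclusion of 3 arrays 115, 324 and 757. No filter on dim probes gave 58 on fat, background set as a block 57, the clock index 47 and, with that block, 19. The clock index with the block gave 87 on chow, and a fit on the groups of the comparison gave 31. Median scaling over all probes moved the median of all genes by 0.12 for fat over both surgeries and 0.17 for fat in ligated rats. The described genes did not all share this shift. For fat in ligated rats Dgat1 moved from 0.14 to 0.36, and Gpam only from 0.32 to 0.35. Leaving out 1 animal gave 24 (without ligated chow 4) to 103 (without ligated chow 21) genes on chow, 42 (without ligated fat 28) to 181 (without ligated fat 18) on fat and 253 to 487 over both diets, the extremes there again being ligated fat 28 and 18. For fat, 0 to 11 genes were called in any setting, against 2, 1 and 6.

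No paired analysis was possible because the replicate numbers are animal numbers, each used once. Probes at background (Abhd5, the second Dgat2 probe) and dim ones (Gpam) have little signal to show a difference.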
